A study of Mus musculus with 23 samples.

Results

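The nuclear genes of the mitochondrial ribosomal proteins were taken as every gene whose symbol starts with Mrpl or Mrps followed by a digit and that is listed for both experiments. This gave 77 genes out of 15962 in the 2-week table and 15762 in the single-bout table, of which 15492 were in both. All 77 passed the filter on low counts in each experiment, so no member was lost from any comparison. By role, 50 of the 77 encode proteins of the large subunit and 26 encode proteins of the small subunit. The symbol is not always a guide to the place: Mrps30 and Mrps18a encode large subunit proteins despite the small subunit letter, and Mrps36 encodes a subunit of the 2-oxoglutarate dehydrogenase complex and no part of the ribosome.

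RNA came from osteocyte-enriched cortical bone, tibial shafts with the marrow rinsed out and the surface cells digested away, of male C57BL/6 mice, wild type in every group and 5 months old. The right tibia was loaded in compression at a peak of 8.25 N, and the left tibia of the same animals was the nonloaded control. Mice drank water alone (vehicle) or water dosed to give 100 mg/kg of L-BAIBA a day, the L-enantiomer of beta-aminoisobutyric acid, which is a metabolite released by contracting muscle. In the 2-week experiment loading was done in 3 bouts a week for 2 weeks alongside treatment, and there were 12 libraries, 3 for each pairing of treatment (vehicle or L-BAIBA) with side (nonloaded or loaded). The single-bout experiment applied 1 bout after 5 days of treatment and had 11 libraries, with 2 in the L-BAIBA nonloaded group and 3 in each of the others. Tibiae were taken 24 h after the last bout. Every library pooled RNA from the same side of 2 mice, so 5 pools of the 2-week experiment and 4 of the single-bout experiment gave both a loaded and a nonloaded library. The design asks how these transcripts differ with loading alone, with L-BAIBA alone and with the combination.

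Mitochondria carry ribosomes of their own, which translate the few messages of the mitochondrial genome, all of them for membrane subunits of the respiratory chain and ATP synthase. The RNA of these ribosomes is made inside the organelle, while every protein of both subunits is encoded in the nucleus, made in the cytosol and imported. Compared with the ribosomes of bacteria they hold much less RNA and many more proteins, so that the members divide into homologues of bacterial ribosomal proteins and proteins found only in mitochondria. In bone, cells that differ in how much they rely on respiration, such as osteoblasts, osteocytes, osteoclasts and the blood-forming cells of the marrow, share this machinery.

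The 2-week libraries held 6368289 to 18318951 counts assigned to genes, and the deeper single-bout libraries 17811949 to 37562527. The 77 genes took 0.154% to 0.225% of them in the 2-week experiment and 0.166% to 0.192% in the single-bout experiment. The shallowest libraries were the nonloaded and loaded libraries of 1 L-BAIBA pool (L-BAIBA nonloaded 1 and L-BAIBA loaded 1 of the 2-week experiment), and results that rest on them are given with and without that pool. The 8 osteocyte markers (Dmp1, Phex, Mepe, Sost, Fgf23, Pdpn, Cd44 and Dkk1) were detected in every library, with a summed level of 5079.0 to 24006 CPM (counts scaled to a common library total). Markers of blood-forming cells were detected as well, with a summed level of 12301 to 71540 CPM for 9 neutrophil genes and 772.6 to 2909.9 CPM for 5 erythroid genes, and whether this RNA came from residual marrow or from blood was not tested. Skeletal muscle markers were near 0, at 4.7 to 13 CPM in sum.

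Promoters are shown first because mitochondrial genes of the nucleus are known for binding sites of NRF1, GABPA and YY1 near their start. The search was made with the shared direction of the members in several comparisons known. Whether promoter letters bear on that direction was not tested. RefSeq promoters on GRCm38.p6, the assembly also called mm10, were found for 68 of the 77 members, each running from 250 bases before to 50 bases after the start. Each window was searched on both strands for the letters GCATGCGC (NRF1 core), CCGGAAG (GABPA core), AAGATGGC (YY1 core), GGGCGG (SP1 core), CCAAT and TGACGTCA (CREB core). A gene was counted when any of its promoter windows held the letters. The GABPA core was found for 25 of the 68 members (36.8%), against 9.9% of all 27025 genes with a RefSeq promoter. Among the 11323 other genes tested here that had a promoter the share was 17.6%. The YY1 core was found for 12 members (17.6%), against 3.2% of all genes with a promoter and 4.7% of the other genes tested. The NRF1 core was found for 8 members (11.8%), against 3.0% and 5.4%. At least 1 of these 3 cores was found for 37 members (54.4%), against 14.9% of all genes with a promoter and 25.1% of other tested genes. The other letters were no more frequent in members than in other tested genes. GGGCGG was found for 50% of members against 65.3% of other tested genes, CCAAT for 39.7% against 42.4% and TGACGTCA for 2.9% against 3.3%. Median GC content was 58.2% for members and 61.3% for other tested genes.

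The sequences are the 120 bases before the start of the 3 members with the smallest p for 2 weeks of loading alone, and then of members that carry each core in this stretch. They are read from RefSeq 5′ to 3′ on the strand of the gene, on GRCm38.p6, and capitals mark the matches on either strand. The promoters of Mrps31 (chr8:22411220-22411339, + strand), Mrps17 (chr5:129715377-129715496, + strand) and Mrps24 (chr11:5707702-5707821, - strand) held none of the 3 cores in these bases. In Mrpl33 (chr5:31613831-31613950, + strand) and Mrpl32 (chr13:14613038-14613157, - strand) the capitals are the NRF1 core, which Mrpl32 held at 3 places. In Mrpl51 (chr6:125192080-125192199, + strand) they are the GABPA core, and in Mrpl36 (chr13:73330889-73331008, + strand) the YY1 core.
Mrps31: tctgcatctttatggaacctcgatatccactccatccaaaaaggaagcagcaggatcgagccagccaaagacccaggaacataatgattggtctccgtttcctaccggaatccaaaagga
Mrps17: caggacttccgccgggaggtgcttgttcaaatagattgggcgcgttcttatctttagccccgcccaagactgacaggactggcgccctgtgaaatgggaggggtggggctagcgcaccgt
Mrps24: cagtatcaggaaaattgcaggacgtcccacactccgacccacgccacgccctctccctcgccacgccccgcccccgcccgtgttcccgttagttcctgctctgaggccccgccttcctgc
Mrpl33: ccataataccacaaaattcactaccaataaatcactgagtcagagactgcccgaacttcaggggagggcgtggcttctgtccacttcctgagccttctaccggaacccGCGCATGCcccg
Mrpl32: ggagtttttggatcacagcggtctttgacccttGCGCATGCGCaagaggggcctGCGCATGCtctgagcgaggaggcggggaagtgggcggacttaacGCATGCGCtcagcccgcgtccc
Mrpl51: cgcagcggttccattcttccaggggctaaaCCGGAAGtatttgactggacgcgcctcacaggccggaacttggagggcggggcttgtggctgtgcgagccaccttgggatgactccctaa
Mrpl36: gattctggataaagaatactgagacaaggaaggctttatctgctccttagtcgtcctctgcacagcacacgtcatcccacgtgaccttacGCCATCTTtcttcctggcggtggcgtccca

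Median changes were close with and without each core. After 2 weeks of loading alone the median log2 fold change was -0.34 for the 8 members with the NRF1 core and -0.36 for the 60 without it. For the GABPA core it was -0.37 in 25 members with it and -0.34 in 43 without it, and for the YY1 core -0.37 in 12 and -0.35 in 56. At an unadjusted p under 0.05 by edgeR stood 5 of 25 members with the GABPA core and 15 of 43 without it. The counts were 1 of 8 and 19 of 60 for the NRF1 core and 4 of 12 and 16 of 56 for the YY1 core. For CCAAT they were 11 of 27 and 9 of 41. Of all genes 4.01% were lower at that p. Differences between members with and without these letters were not tested. These are descriptions of letters in a window and say nothing of binding.

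Levels of different members were compared per length, as CPM scaled by TMM (trimmed mean of M values) and divided by the deposited exon length in kb. They spanned 3.38 to 77.5 CPM per kb in the 2-week experiment (22.9-fold) and 3.06 to 115.1 CPM per kb in the single-bout experiment (37.6-fold), with medians of 19.9 and 18.5. The order was much alike in the 2 experiments, with a Spearman correlation of 0.97 across the 77 genes, which share their libraries and exon lengths. Large subunit members had a median of 20.7 CPM per kb in the 2-week libraries and small subunit members 19.4 CPM per kb. After a single bout the medians were 20.7 and 17.7 CPM per kb.

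At the top of the order was Mrpl33, a small protein with a bacterial homologue, with a mean of 77.5 CPM per kb (52.4 to 117 over the 2-week libraries) and 115.1 CPM per kb after a single bout (89.1 to 184). Mrpl52 followed with 74.2 CPM per kb in the 2-week libraries (47.7 to 127), then Mrps21 with 71.8 (52.5 to 119), Mrpl24 with 60.9 (51.8 to 79.8) and Mrpl42 with 56.6 (43.9 to 79.5). Their ranges over the libraries overlapped. Within each 2-week library, though, Mrpl33 and Mrps21 both stood above Mrpl42. In the single-bout libraries the next after Mrpl33 were Mrps21 (64.8 CPM per kb), Mrpl24 (60.4), Mrpl18 (59.6) and Mrpl30 (52.9). At the bottom were members with long exons: Mrps25 with 3.38 CPM per kb in the 2-week libraries (2.53 to 4.396), Mrpl1 with 3.80, Mrpl17 with 4.59, Mrpl19 with 4.96 and Mrpl35 with 5.6. The same 5 were lowest after a single bout, from 3.06 CPM per kb for Mrps25 to 6.08 for Mrpl19. Their exon lengths were 3695 to 6712 bases, against 466, 412 and 407 bases for Mrpl33, Mrpl52 and Mrps21 at the top. Before division by length the 2-week means were 20.5 CPM for Mrps25 and 36.1 CPM for Mrpl33. How far the order follows the annotated length was not tested. The study accepted RNA with an integrity number of 4 or higher. Whether RNA quality bears on the levels of members with long exons was not tested. Exons of Mrpl53, Mrps23 and Mrps6 overlap those of another gene on the same strand (Ccdc142, Cuedc1 and Slc5a3), so reads of the shared parts were not assigned and these 3 levels are uncertain.

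**Figure D1:**
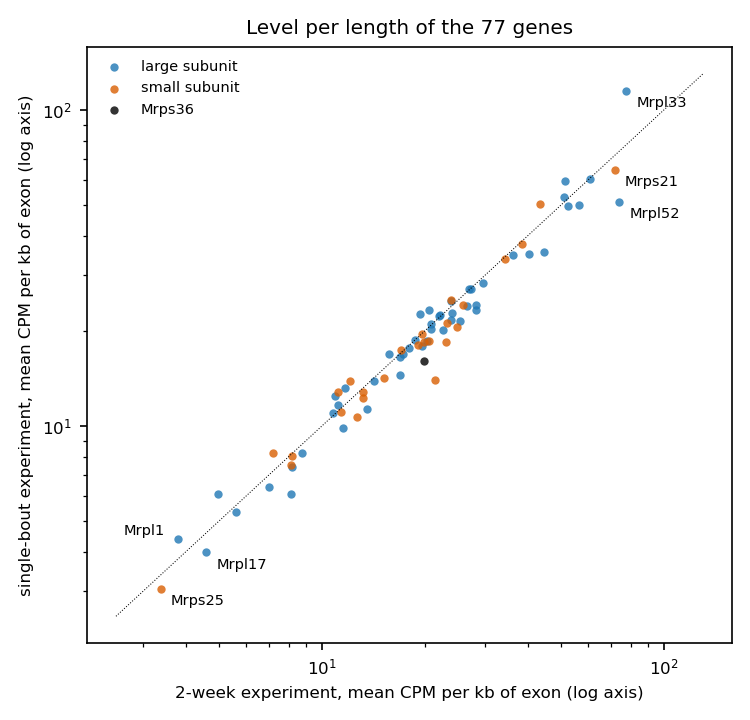
Mean level per length of each of the 77 genes in the 2-week libraries (x axis, CPM per kb of exon) and the single-bout libraries (y axis, CPM per kb of exon), both on log axes and coloured by subunit. Points run along the diagonal from Mrps25 at 3.38 and 3.06 CPM per kb to Mrpl33 at 77.5 and 115.1 CPM per kb.

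Members with a role of their own were spread over this order. Mrpl12, the stalk protein that recruits translation factors and has also been described to bind the mitochondrial RNA polymerase, had 40.4 and 35.2 CPM per kb in the 2-week and single-bout libraries. Mrpl11, at the base of the same stalk, had 7.0 and 6.39 CPM per kb. Mrpl3 next to the peptidyl transferase centre had 20.6 and 23.2 CPM per kb, and Mrps12 at the decoding centre had 19.9 and 18.5. The 3 homologues of the bacterial S18 protein differed in level: Mrps18c had 43.4 and 50.4 CPM per kb, Mrps18a 25.4 and 21.5, and Mrps18b 13.2 and 12.2. Mrps5, whose homologue in Caenorhabditis elegans is known from studies of lifespan, had 20.6 and 18.5 CPM per kb.

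The members went up and down together from library to library. Across the 12 libraries of the 2-week experiment the first principal component of the 77 log2 levels held 54.1% of their variance, the median correlation between pairs was 0.54, and 94.0% of pairs were positively correlated. Across the 11 single-bout libraries these values were 51.1%, 0.43 and 81.2%. Mrpl20 followed the mean of the other members most closely in both experiments (r = 0.98 and 0.97), while Mrpl38 followed it least in the 2-week libraries (r = 0.11) and Mrpl42 least in the single-bout libraries (r = -0.31). Libraries share depth, RNA quality and cell makeup, so these correlations are descriptions. The same values were not computed for other genes, so whether the members differ from them in this was not tested.

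Summed over the 77 members, levels in the 2-week vehicle nonloaded libraries were 2117, 2345 and 1834 CPM, and the vehicle loaded libraries had 1568, 1616 and 1759 CPM. The loaded libraries were below all 3 nonloaded libraries. The sums were 2176, 1658 and 1758 CPM in L-BAIBA nonloaded libraries and 1908, 1765 and 1779 CPM in L-BAIBA loaded libraries, where the groups overlapped and the library of the shallow pool was the highest of each group. Vehicle nonloaded 2 was the highest library for 42 of the 77 members, L-BAIBA nonloaded 1 for 21 and vehicle nonloaded 1 for 10. Vehicle loaded 1 was the lowest for 23 members and vehicle loaded 2 for 21.

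After a single bout the sums were 1777, 1629 and 1892 CPM for vehicle without loading, 1590, 1859 and 1948 CPM for vehicle with loading, 1776 and 1782 CPM in L-BAIBA nonloaded and 1808, 2022 and 1745 CPM in L-BAIBA loaded libraries. All 4 groups overlapped. L-BAIBA loaded 2 was the highest library for 34 members and vehicle loaded 3 for 22, and vehicle loaded 1 was the lowest for 30.

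**Figure D2:**
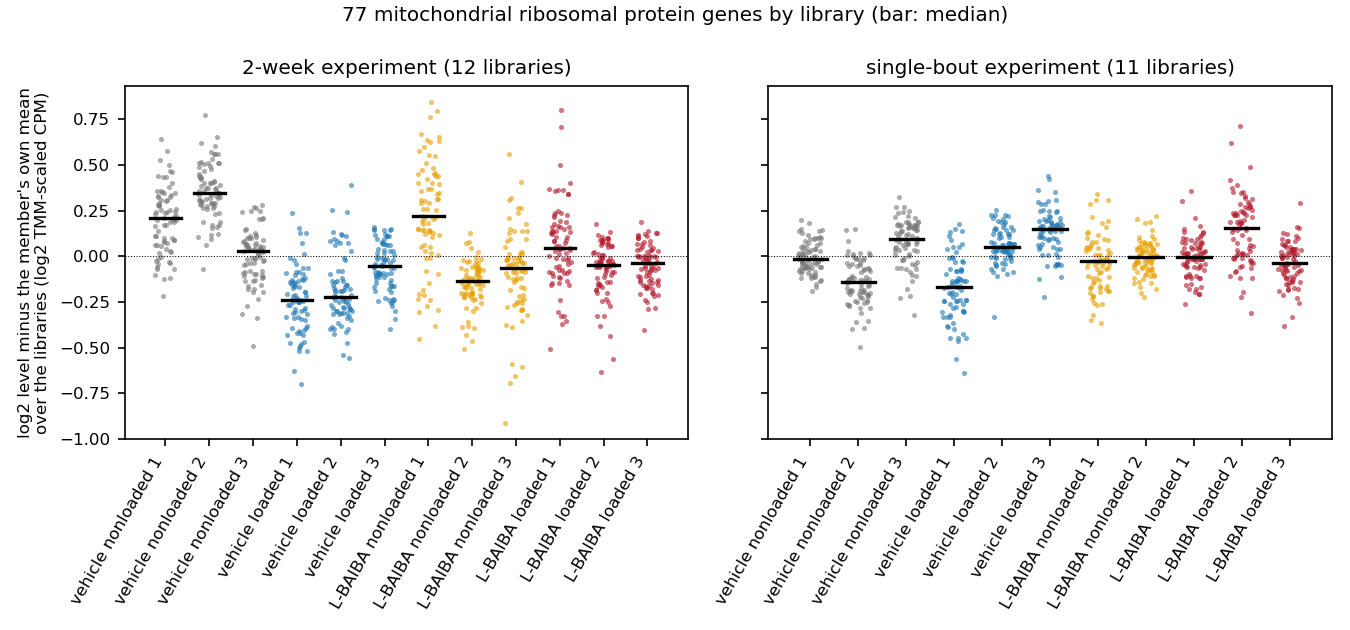
Log2 level of each of the 77 genes minus its own mean over the libraries of the experiment (y axis, log2 TMM-scaled CPM), by library (x axis), with the median as a bar. The medians run from -0.24 in vehicle loaded 1 to 0.35 in vehicle nonloaded 2 of the 2-week experiment and from -0.17 to 0.16 in the single-bout experiment.

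The members' own spread differed. In the 2-week libraries the SD of the log2 level was largest for Mrps6 (0.48), Mrpl52 (0.46) and Mrpl23 (0.42) and smallest for Mrps30 (0.12), Mrpl3 (0.14) and Mrps5 (0.14). Mrpl52 stood at 52.2, 21.6 and 24.3 CPM in the L-BAIBA nonloaded and at 47.5, 19.7 and 21.97 CPM in the L-BAIBA loaded libraries, with the shallow pool at the top in each. Mrps30, once described as a programmed cell death protein, stayed between 24.4 and 33.2 CPM in all 12 libraries. In the single-bout libraries the SD was largest for Mrpl33 (0.33), Mrpl28 (0.29) and Mrpl44 (0.28) and smallest for Mrpl24 (0.069), Mrps25 (0.073) and Mrpl17 (0.078).

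Loading alone for 2 weeks had the most members at an unadjusted p under 0.05 of the 15 comparisons by edgeR. Among vehicle-treated mice all 77 were lower in the loaded tibia, with log2 fold changes from -0.70 to -0.03 and a median of -0.35, while 48.5% of all genes were lower and their median was 0.01. None of the 77 reached an adjusted p under 0.05 by edgeR's quasi-likelihood test, as none of all 15576 genes did (0%), and the smallest adjusted p of a member was 0.475. At an unadjusted p under 0.05, 25 members (32.5%) were lower and none was higher, against 4.01% of all genes lower. In 38 members every loaded library was below every nonloaded library, against 9.74% of all genes. DESeq2 gave 28 members at an unadjusted p under 0.05, all lower, and no adjusted p for any member, through its filter on mean counts. The 4.01% is edgeR's share and does not apply to the DESeq2 count. A lower level in bulk RNA can come from fewer cells of a type or from less RNA per cell, and these cannot be told apart here.

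The smallest p was that of Mrps31 (chr8:22411340-22429665), a small subunit protein found only in mitochondria. It stood at 15.5, 14.8 and 13.4 CPM without loading and at 8.75, 8.25 and 9.86 CPM with loading, vehicle throughout, a log2 fold change of -0.70 ± 0.21, adjusted p = 0.475 (here and below ± is the standard error, SE, of the fit, and adjusted p is edgeR's after Benjamini-Hochberg adjustment over all genes). The groups did not overlap. Mrps17 (chr5:129715528-129718691), which binds ribosomal RNA in the body of the small subunit, had 33.4, 37.1 and 32.7 CPM in nonloaded and 23.3, 25.04 and 26.1 CPM in loaded libraries, a log2 fold change of -0.47 ± 0.14. Mrps24 (chr11:5703983-5707699) had 26.2, 33.98 and 24.3 CPM against 19.5, 17.9 and 22.05 CPM, a log2 fold change of -0.51 ± 0.16. Both were lower in every loaded library. For Mrps16 (chr14:20391231-20393555), a small subunit protein whose loss in humans causes a respiratory chain deficiency, values were 30.7, 31.6 and 19.9 CPM against 16.2, 19.1 and 17.8 CPM, a log2 fold change of -0.63 ± 0.22. Its nonloaded library 3 was close to the loaded ones and above them all.

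Among large subunit members at an unadjusted p under 0.05, Mrpl12 (chr11:120484669-120488754) had 45.02, 55.8 and 37.5 CPM in nonloaded and 32.2, 30.9 and 35.6 CPM in loaded libraries (-0.49 ± 0.18). Mrpl44 (chr1:79776018-79781445), a protein related to RNase III, had 22.6, 22.02 and 19.7 CPM against 14.1, 13.6 and 17.6 CPM (-0.51 ± 0.19). Neither overlapped between the groups. Mrpl28 (chr17:26123503-26126613) had 39.2, 44.2 and 32.6 CPM against 23.7, 25.04 and 33.7 CPM (-0.49 ± 0.17) and did overlap, through library 3 of each group. Mrpl19 (chr6:81957842-81965949), Mrpl39 (chr16:84717580-84735302) and Mrpl14 (chr17:45686372-45698495) had log2 fold changes of -0.48 ± 0.16, -0.35 ± 0.14 and -0.57 ± 0.23, in that order, and their groups did not overlap. The other large subunit members of this set were Mrpl51, Mrpl15, Mrpl21, Mrpl18, Mrpl20, Mrpl36, Mrpl40, Mrpl13, Mrpl54 and Mrpl42. The small subunit members were, beside the 4 above, Mrps25, Mrps28, Mrps15, Mrps27 and Mrps14. Mrps27 (chr13:99344786-99415561), a pentatricopeptide repeat protein that binds RNA, had 16.9, 20.2 and 17.7 CPM against 13.4, 12.6 and 15.4 CPM (-0.40 ± 0.18).

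Other members with a role of their own were lower without passing an unadjusted p of 0.05. The log2 fold change was -0.40 ± 0.24 for Mrpl11, -0.40 ± 0.21 for Mrps12, -0.28 ± 0.14 for Mrps5 and -0.24 ± 0.14 for Mrpl3. It was -0.28 ± 0.16 for Mrps34 and -0.21 ± 0.20 for Mrps22, small subunit proteins whose loss in humans causes mitochondrial disease, and -0.23 ± 0.23 for Mrpl41. The 3 S18 homologues had -0.30 ± 0.15 (Mrps18a), -0.34 ± 0.19 (Mrps18b) and -0.40 ± 0.23 (Mrps18c). Mrps30 had -0.19 ± 0.14, and Mrps36, outside the ribosome, had -0.32 ± 0.23. The changes nearest to 0 were those of Mrpl38, Mrps6, Mrpl2 and Mrpl52, between -0.03 and -0.06.

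Both subunits and both origins were lower in this comparison. The large subunit had 50 of 50 members lower, 16 of them at an unadjusted p under 0.05, with a median of -0.37. The small subunit had 26 of 26 lower, 9 at an unadjusted p under 0.05, with a median of -0.35. Homologues of bacterial proteins had medians of -0.40 in the large (30 members) and -0.35 in the small subunit (16 members), and proteins found only in mitochondria had -0.32 (20 members) and -0.36 (10 members). Mrps18a and Mrps18b, named above as homologues of bacterial S18, were counted in the class found only in mitochondria. Differences between these classes were not tested.

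Other genes of mitochondrial translation were counted in the same way. The 6 measured mitoribosomal proteins with other symbols (such as Dap3) were all lower, 2 of them at an unadjusted p under 0.05, with a median of -0.34. Of 18 mitoribosome assembly factors 14 were lower (1 at an unadjusted p under 0.05, median -0.23). Of 14 translation factors 12 were lower (none at that p, median -0.18), and of 17 mitochondrial aminoacyl-tRNA synthetases 14 (1 at that p, median -0.17). Of 9 genes of mitochondrial transcription and replication 6 were lower, with a median of -0.04, and regulators of mitochondrial biogenesis such as Ppargc1a, Nrf1 and Gabpa were split 4 and 4 with a median of 0.08. The products of mitochondrial translation meet nuclear subunits in the respiratory chain, and 76 of 77 such subunits were lower, 18 of them at an unadjusted p under 0.05, with a median of -0.37. Cytosolic ribosomal proteins were lower in 83 of 93 genes (1 at that p), with a median of -0.36.

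Markers of several other cell types differed in the same comparison. All 5 erythroid markers were lower in loaded tibiae (median -0.70, 4 at an unadjusted p under 0.05), with summed levels of 1849.9 to 2499.8 CPM without and 978.5 to 1653.2 CPM with loading. All 9 neutrophil markers were lower (median -0.53, 5 at that p), at 18848 to 30182 CPM against 12301 to 19523 CPM, and so were all 8 genes of cycling cells (median -0.63, 5 at that p), at 4352.1 to 4629.4 CPM against 2298.5 to 4009.0 CPM. All 8 osteocyte markers were higher (median 0.85, 2 at that p), at 7667.8 to 8198.1 CPM against 7853.7 to 24006 CPM. Endothelial and adipocyte markers were higher in 5 of 5 genes each (medians 0.39 and 0.34, 1 and 0 at that p), at 526.1 to 596.8 CPM against 536.6 to 843.4 CPM and at 201.9 to 598.6 CPM against 224.4 to 518.8 CPM. B lineage markers, also of blood-forming cells, were lower in 5 and higher in 2 of 7 genes (median -0.15, 0 at that p), and their summed levels overlapped at 275.5 to 445.6 CPM against 304.8 to 404.3 CPM. Chondrocyte markers were lower in 4 and higher in 2 of 6 genes (median -1.10, 0 at that p), and their summed levels overlapped at 480.8 to 1551.5 CPM against 284.9 to 831.7 CPM. Osteoblast markers were lower in 5 and higher in 1 of 6 genes (median -0.09, 1 lower and 1 higher at that p). Their summed levels overlapped at 19346 to 26619 CPM against 13889 to 32774 CPM. No marker of these lists was at 0 in any library of this comparison. The part of cell makeup in the lower member levels was not tested.

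The size of the count rested on single libraries, while most members stayed lower with any 1 library left out. The members varied together across libraries, as described above, so the number lower does not count independent results. The fits also share most of their libraries. Leaving out 1 library at a time gave 3 to 36 members at an unadjusted p under 0.05, with 74 to 77 members lower and medians from -0.44 to -0.26. It was 3 without vehicle nonloaded 2 (1.62% of all genes lower), 16 without vehicle nonloaded 1 (2.60%), 12 without vehicle loaded 1 (2.58%) and 11 without vehicle loaded 2 (1.37%). The highest count, 36, was reached without vehicle nonloaded 3 (5.25%) and without L-BAIBA nonloaded 1 (5.68%). Without the shallow L-BAIBA pool, which bears on the estimated spread, 40 members were lower at that p, against 9.52% of all genes. With mouse pools entered as a random block (limma voom) 51 members were lower at that p against 9.24% of all genes, and with the pool as a fixed block (edgeR) 34 against 7.54%. The smallest adjusted p of a member was 0.158 with the random block, 0.249 with the fixed block and 0.142 without the shallow pool. The fixed block compares tibiae of the same mice. Vehicle nonloaded 3 and vehicle loaded 2 had no such partner and add nothing to its fold changes.

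Most members were also lower with L-BAIBA alone for 2 weeks. In nonloaded tibiae 68 of the 77 members were lower with L-BAIBA and 9 were higher, with a median of -0.21, while 50.5% of all genes were lower with a median of -0.00. No member had an adjusted p under 0.05 by edgeR (0% of all genes), and 6 were lower at an unadjusted p under 0.05 (7.79%), against 3.86% of all genes. DESeq2 gave 5 at that p. In 11 members every L-BAIBA library was below every vehicle library, against 9.46% of all genes, so this share was close to the background.

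Mrpl44 had the smallest p. It stood at 22.6, 22.02 and 19.7 CPM in vehicle and at 13.3, 13.9 and 15.9 CPM in L-BAIBA nonloaded libraries, with no overlap and a log2 fold change of -0.58 ± 0.20, adjusted p = 0.536. Mrpl2 (chr17:46646248-46650132), a protein of the peptidyl transferase region, had 26.6, 26.7 and 20.9 CPM against 20.1, 19.3 and 18.9 CPM (-0.35 ± 0.15). Its groups were separated only narrowly. Mrps17 had 31.1, 26.4 and 24.1 CPM with L-BAIBA (-0.34 ± 0.14), each below the vehicle nonloaded values given above. Mrps12 (chr7:28739641-28741781) had 13.9, 21.04 and 14.3 CPM against 9.76, 13.05 and 11.9 CPM (-0.50 ± 0.22), with no overlap and 1 vehicle library well above the rest. The other 2 at that p were Mrps18a (-0.35 ± 0.16) and Mrpl38 (-0.35 ± 0.16). Erythroid, neutrophil and cycling markers were lower here too (5 of 5, 9 of 9 and 8 of 8, medians -0.57, -0.33 and -0.37, with 1, 3 and 2 at an unadjusted p under 0.05). B lineage markers were lower in 6 of 7 genes (median -0.60, 4 at that p), at 275.5 to 445.6 CPM with vehicle and 228.7 to 263.7 CPM with L-BAIBA, and osteocyte markers higher in 8 of 8 (median 0.70, 2 at that p). Chondrocyte markers were lower in 5 of 6 (median -1.45) and endothelial markers higher in 5 of 5 (median 0.47). Osteoblast markers were split 3 and 3 (median -0.07). The part of these cells was not tested.

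The count for L-BAIBA alone also depended on single libraries. Leaving out 1 library gave 1 to 18 members at an unadjusted p under 0.05 and medians from -0.30 to -0.10. It was 18 without L-BAIBA nonloaded 1, the shallow library (3.39% of all genes lower), 9 without vehicle nonloaded 3 (3.27%) and 3 (1 higher, 2 lower) without L-BAIBA nonloaded 2 (7.39% of all genes higher and 4.90% lower). It was 1 without vehicle nonloaded 2 (1.36% lower), vehicle loaded 3 (3.13%), L-BAIBA loaded 2 (3.02%) or L-BAIBA loaded 3 (2.72%), and 2 without vehicle loaded 1 (2.88%) or L-BAIBA nonloaded 3 (2.96%). Without the shallow pool 19 members were lower at that p, against 4.77% of all genes. Scaling by total counts in place of TMM gave 57 members lower and 1 at that p.

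The combination for 2 weeks was compared with vehicle nonloaded tibiae. With both L-BAIBA and loading 75 of 77 members were lower and 2 higher, with a median of -0.23 against -0.00 for all genes, of which 50.5% were lower. None reached an adjusted p under 0.05 by edgeR (0% of all genes), and 4 were lower at an unadjusted p under 0.05 (5.19%), against 0.976% of all genes. DESeq2 gave 2. In 15 members the groups did not overlap with the combination lower, against 4.24% of all genes. With the pool as a random block 2 members were lower at that p, against 0.841% of all genes. The 3 comparisons with vehicle nonloaded tibiae share those 3 libraries and are not independent.

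Mrps28 (chr3:8802146-8923857), a small subunit protein, stood at 19.8, 20.5 and 16.9 CPM in vehicle nonloaded and at 14.03, 12.1 and 13.1 CPM in L-BAIBA loaded libraries, with no overlap and a log2 fold change of -0.55 ± 0.19, adjusted p = 0.9998. Mrps24 had 22.3, 20.2 and 23.1 CPM in L-BAIBA loaded libraries (-0.37 ± 0.16), below each vehicle nonloaded library. Mrpl28 had 28.2, 31.5 and 29.96 CPM (-0.37 ± 0.17), again below each of them. Mrpl44 had 11.5, 17.4 and 18.6 CPM (-0.43 ± 0.20), where the loaded library of the shallow pool was the lowest. None of the 4 overlapped with the vehicle nonloaded libraries. Removing 1 library at a time gave 0 to 10 members at an unadjusted p under 0.05: 10 without vehicle nonloaded 3 (1.78% of all genes lower), 2 without vehicle loaded 1, vehicle loaded 2, L-BAIBA nonloaded 2 or L-BAIBA loaded 3 (0.735% to 0.891%), 1 without vehicle nonloaded 2 (0.328%) or L-BAIBA nonloaded 3 (0.928%), and 0 without L-BAIBA loaded 2 (1.03%). Erythroid, neutrophil, cycling and chondrocyte markers were lower in all 5, 9, 8 and 6 genes (medians -0.44, -0.32, -0.24 and -1.36), of which 1 chondrocyte gene passed that p. B lineage markers were lower in 6 of 7 (median -0.20), and osteocyte and endothelial markers were higher in 7 of 8 and 5 of 5 (medians 0.52 and 0.39). Osteoblast markers were lower in 5 of 6 genes (median -0.17, 2 of them at that p). The part of these cells in the lower member levels was not tested.

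Against loading alone, most members were higher with the combination. In loaded tibiae of the 2-week experiment 63 members were higher and 14 lower with L-BAIBA, with a median of 0.15 against -0.01 for all genes. The vehicle loaded libraries are those of loading alone, so this comparison is not independent of that one. None reached an adjusted p under 0.05 by edgeR (0% of all genes), and 2 were higher at an unadjusted p under 0.05 (2.60%), against 0.353% of all genes. DESeq2 also gave 2. In 14 members every L-BAIBA loaded library was above every vehicle loaded library, against 3.49% of all genes. Mrps31 had 8.75, 8.25 and 9.86 CPM with vehicle and 12.4, 13.1 and 11.99 CPM with L-BAIBA (0.48 ± 0.21, adjusted p = 0.9996). Mrpl10 (chr11:97041586-97049213), which anchors the stalk, had 32.6, 28.4 and 31.6 CPM against 38.4, 37.4 and 38.5 CPM (0.30 ± 0.14). The groups did not overlap in either gene. Mrps25 (chr6:92169523-92184023) had 16.95, 15.3 and 20.1 CPM against 25.99, 22.8 and 18.04 CPM (0.35 ± 0.18), with overlap and no pass at that p. The count was 0 to 4 with 1 library left out: 4 without L-BAIBA nonloaded 1 (0.666% of all genes higher), 1 without vehicle nonloaded 1, vehicle loaded 1, L-BAIBA nonloaded 3 or L-BAIBA loaded 3 (0.219% to 0.374%), and 0 without vehicle loaded 2 (0.0904%), L-BAIBA loaded 1 (3.97%) or L-BAIBA loaded 2 (0.225%). Erythroid, neutrophil and cycling markers were higher in all 5, 9 and 8 genes (medians 0.31, 0.28 and 0.37, with 1 erythroid gene at that p). Osteocyte markers were lower in 7 of 8 (median -0.34, 1 at that p) and osteoblast markers in 5 of 6 (median -0.24, 1 at that p). The part of these cells was not tested.

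Within L-BAIBA-treated mice, loading for 2 weeks left the members near the other genes. There were 33 higher and 44 lower, with a median of -0.02 against 0.01 for all genes. None reached an adjusted p under 0.05 by edgeR (0% of all genes), and 1 was lower at an unadjusted p under 0.05 (1.30%), against 1.03% of all genes. That was Mrpl23 (chr7:142533117-142540742), which lines the exit of the peptide tunnel, with 15.2, 7.81 and 11.7 CPM in nonloaded and 8.45, 5.66 and 7.797 CPM in loaded libraries (-0.66 ± 0.30, adjusted p = 0.9998). Its groups overlapped. Mrpl38 (0.28 ± 0.16) and Mrpl1 (-0.33 ± 0.20) came next. Leaving out 1 library turned the balance: 2 members were higher at that p without L-BAIBA nonloaded 1 (0.659% of all genes higher), 4 were lower without L-BAIBA nonloaded 2 (2.97% of all genes lower), and none passed without vehicle nonloaded 1, L-BAIBA nonloaded 3, L-BAIBA loaded 2, L-BAIBA loaded 3 or the whole shallow pool. B lineage markers were higher in 7 of 7 genes (median 0.24, 3 at that p) and cycling markers in 8 of 8 (median 0.13). Osteoblast markers were lower in 5 of 6 (median -0.18), and the part of these cells was not tested.

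The interaction asks whether the response to loading differed with L-BAIBA. It reuses the libraries of loading alone and is not independent of that comparison. The log2 difference with loading was higher under L-BAIBA than under vehicle (a positive interaction) in 73 of 77 members in the 2-week experiment, with a median of 0.33 against -0.01 for all genes, of which 50.7% were negative. By edgeR none had an adjusted p under 0.05 (0% of all genes), and 7 were positive at an unadjusted p under 0.05 (9.09%), against 2.47% of all genes. DESeq2 also gave 7. Mrps25, which is found only in mitochondria, had 21.6, 26.7 and 23.4 CPM without and 16.95, 15.3 and 20.1 CPM with loading under vehicle, but 17.2, 19.9 and 17.9 CPM without and 25.99, 22.8 and 18.04 CPM with loading under L-BAIBA. The vehicle groups did not overlap, and the L-BAIBA groups overlapped, with 2 of the 3 loaded libraries above every nonloaded one. Its interaction on the log2 scale was 0.73 ± 0.25, adjusted p = 0.724. Mrps17 (0.53 ± 0.20), Mrps18a (0.53 ± 0.22) and Mrpl44 (0.66 ± 0.28) followed, then Mrpl12, Mrpl19 and Mrpl10 with 0.59, 0.55 and 0.46.

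Blocking on the mouse pools raised this count. It was 29 of 77 with the random block, against 7.02% of all genes, and 17 with the fixed block, against 5.73% of all genes. The smallest adjusted p of a member was 0.221 and 0.338 in these fits. Vehicle nonloaded 3 and vehicle loaded 2, without a partner from the same mice, add nothing to the fold changes of the fixed block. Without the shallow pool 15 members passed the unadjusted threshold, against 7.71% of all genes, and scaling by total counts gave 3. Leaving out 1 library gave 1 to 19 and medians from 0.24 to 0.45. The count was 19 without L-BAIBA nonloaded 1 (3.60% of all genes positive) and 14 without vehicle nonloaded 3 (2.5%). It was 1 without vehicle nonloaded 2 (1.08%), 2 without L-BAIBA nonloaded 2 (2.77%), 3 without vehicle loaded 1 (1.88%) or L-BAIBA loaded 2 (1.02%), and 4 without vehicle loaded 2 (0.897%), L-BAIBA nonloaded 3 (1.94%), L-BAIBA loaded 1 (7.37%) or L-BAIBA loaded 3 (1.16%). Erythroid, neutrophil and cycling markers were positive in 5 of 5, 9 of 9 and 8 of 8 genes (medians 0.84, 0.61 and 0.77), and 6 of 7 B lineage markers were positive (median 0.52). The osteocyte markers were negative in 7 of 8 genes (median -1.01). Chondrocyte markers were positive in 4 and negative in 2 of 6 genes (median 1.095, 1 positive at an unadjusted p under 0.05). Osteoblast markers were positive in 2 and negative in 4 of 6 genes (median -0.04). Their part was not tested.

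**Figure D3:**
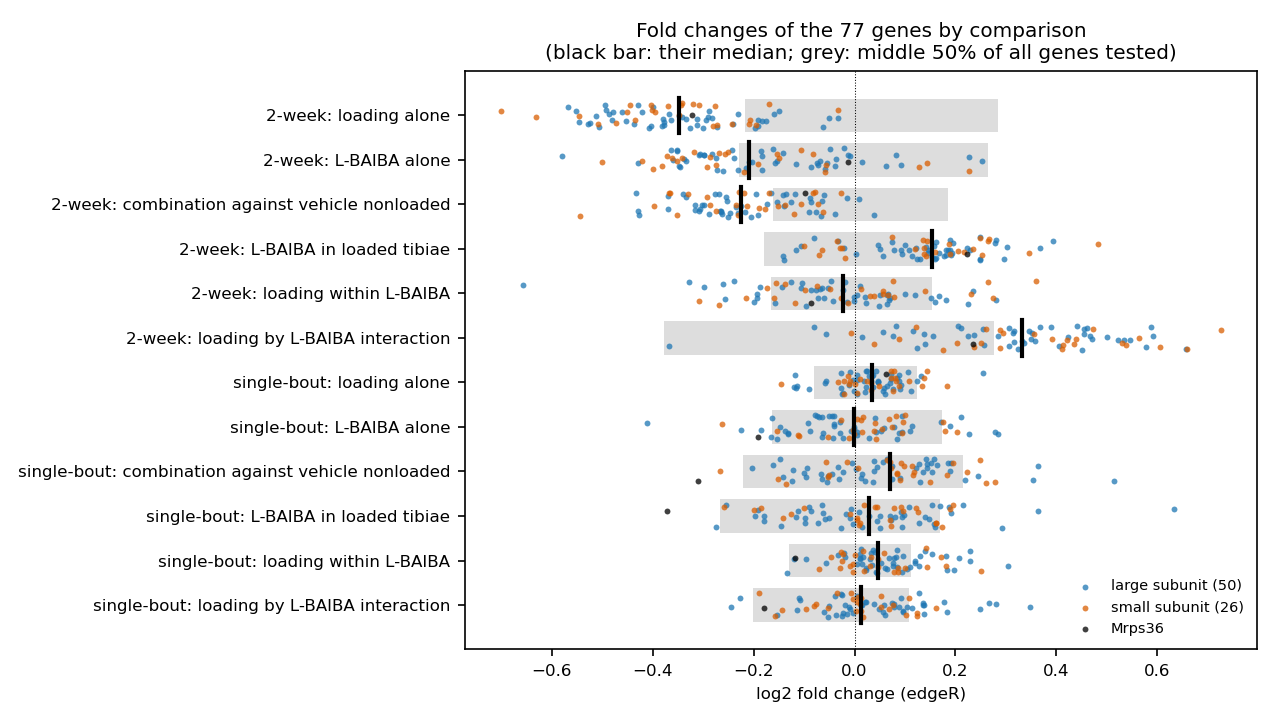
Log2 fold change of each of the 77 genes (x axis, edgeR) in each comparison within an experiment (y axis), with large subunit, small subunit and Mrps36 in separate colours, the members' median as a black bar and the middle 50% of all genes tested as a grey band. For 2 weeks of loading alone all points lie left of 0 with a median of -0.35, and in the single-bout rows the medians lie between -0.00 and 0.07.

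The pools allow the loaded tibia to be set beside the nonloaded tibia of the same 2 mice. In the vehicle pool behind nonloaded 1 and loaded 1 of the 2-week experiment 72 of 77 members were lower in the loaded tibia, with a median difference of -0.43 on the log2 scale. In the pool behind vehicle nonloaded 2 and loaded 3 all 77 were lower, with a median of -0.40. The remaining vehicle libraries, nonloaded 3 and loaded 2, came from different mice. In the L-BAIBA pools 54, 23 and 37 of 77 members were lower, with medians of -0.18 in the shallow pool and 0.08 and 0.01 in the others. The median of all genes was between 0.00 and 0.01 in these 5 pools.

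Single-bout pools did not show the difference. The vehicle pools had 46 and 49 of 77 members lower in the loaded tibia, with medians of -0.04 and -0.03. The L-BAIBA pools had 10 and 50 lower, with medians of 0.18 and -0.03.

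**Figure D4:**
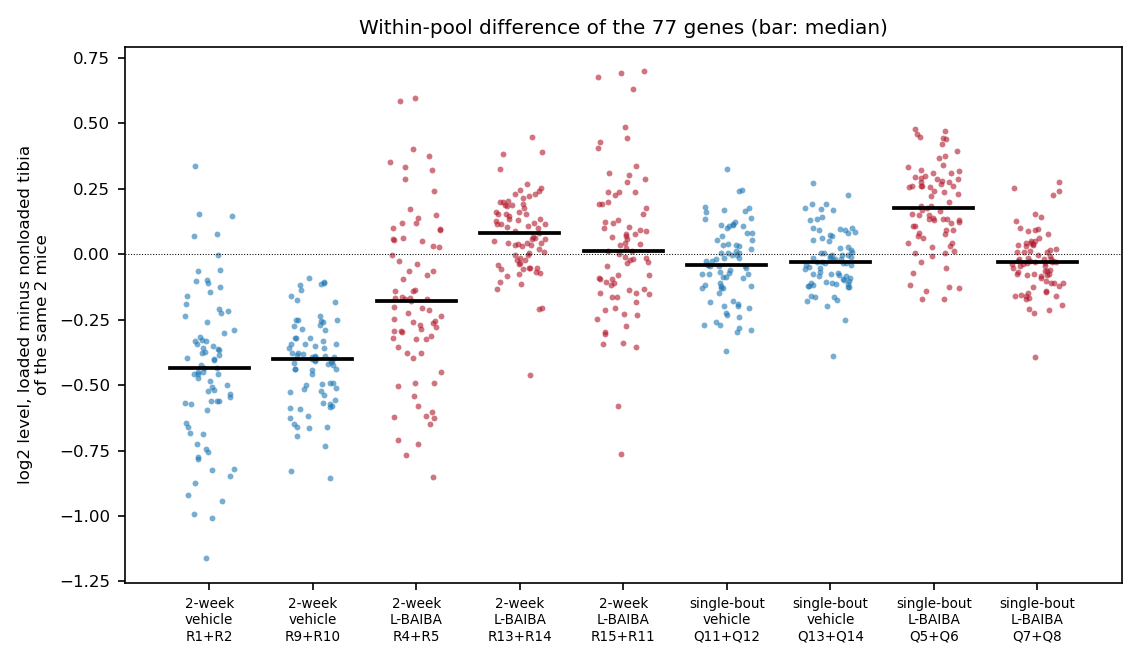
Log2 level in the loaded tibia minus the nonloaded tibia of the same 2 mice (y axis) for each of the 77 genes, by mouse pool (x axis), with the median as a bar. The vehicle pools of the 2-week experiment have medians of -0.43 and -0.40, and the other 7 pools lie between -0.18 and 0.18.

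A single bout of loading alone gave no member at an unadjusted p under 0.05 in either direction, against 0.858% of all genes higher and 0.329% lower. None had an adjusted p under 0.05 by edgeR (0% of all genes), and DESeq2 gave none at either threshold. There were 55 members higher and 22 lower, with a median of 0.03 against 0.02 for all genes. The smallest p was that of Mrpl52 (chr14:54426909-54429750), with 20.1, 17.3 and 21.1 CPM without and 21.7, 22 and 25.98 CPM with loading (0.25 ± 0.17, adjusted p = 0.9999). Each loaded library was above each nonloaded one. Mrps27 (0.18 ± 0.15) and Mrps31 (0.14 ± 0.13) came next, and Mrps31 had 10.5, 10.5 and 12.96 CPM against 11.8, 12.8 and 12.95 CPM, which overlapped. Neutrophil markers were lower in 9 of 9 genes by a median of -0.16 and osteocyte markers higher in 8 of 8 by a median of 0.73. Chondrocyte markers were lower in 5 of 6 genes (median -0.96, 1 at an unadjusted p under 0.05).

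L-BAIBA alone in the single-bout experiment likewise gave no member at an unadjusted p under 0.05, against 2.09% of all genes higher and 1.59% lower, and none at an adjusted p under 0.05 by edgeR (0% of all genes). DESeq2 gave 1 lower. There were 37 members higher and 40 lower, with a median of -0.00 against 0.01 for all genes, or 46 higher and 31 lower with a median of 0.03 when scaled by total counts. Mrpl47 (chr3:32727497-32736755) had 10.8, 10.7 and 12.2 CPM with vehicle and 7.92 and 8.98 CPM with L-BAIBA (-0.41 ± 0.20, adjusted p = 0.956), with every L-BAIBA value below every vehicle value. Mrps22 (-0.26 ± 0.15) and Mrpl10 (0.21 ± 0.15) followed. Without vehicle loaded 1, or without L-BAIBA loaded 3, 1 member was lower at that p, against 2.59% and 1.91% of all genes. Leaving out either L-BAIBA nonloaded library leaves 1 in that group, so those fits, here and in the other comparisons, assume that it varies like the other groups. B lineage, erythroid and adipocyte markers were lower in all 7, 5 and 5 genes (medians -1.23, -0.61 and -1.36), and neutrophil markers higher in 9 of 9 (median 0.47).

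The combination after a single bout left most members near vehicle nonloaded levels. There were 51 higher and 26 lower, with a median of 0.07 against 0.02 for all genes. No member had an adjusted p under 0.05 by edgeR (0% of all genes), and 2 were higher at an unadjusted p under 0.05 (2.60%), below the 7.06% of all genes. DESeq2 gave 3 higher. The 2 by edgeR were Mrpl33 (chr5:31613951-31622644), with 50.4, 46.4 and 44.9 CPM in vehicle nonloaded and 67.1, 85.8 and 49.7 CPM in L-BAIBA loaded libraries (0.52 ± 0.18, adjusted p = 0.246), and Mrpl43 (chr19:45005014-45006442), with 23.9, 22.9 and 24.5 CPM against 25.9, 36.4 and 28.9 CPM (0.35 ± 0.14). Mrpl33 overlapped at its lowest L-BAIBA loaded library, and Mrpl43 did not overlap. Mrps22 (chr9:98588730-98601679) had 17.2, 15.3 and 18.3 CPM against 15.7, 12.5 and 14.05 CPM (-0.27 ± 0.14) and came next. Removing 1 library at a time gave 0 to 4: 4 (3 higher, 1 lower) without L-BAIBA loaded 1 (8.89% of all genes higher and 8.55% lower), 1 higher without vehicle nonloaded 1 (4.89%) or vehicle nonloaded 2 (5.21%), and 0 without vehicle nonloaded 3 or L-BAIBA loaded 2.

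Other lists were counted in the same way. Nuclear respiratory chain subunits were higher in 71 of 77 genes, 15 at an unadjusted p under 0.05, with a median of 0.19. Cytosolic ribosomal proteins were higher in 89 of 95 genes (5 higher and 1 lower at that p) with a median of 0.18, and mitochondrial translation factors in 5 of 14. Markers of other cells moved as well: neutrophil markers were higher in 9 of 9 genes (median 0.65), at 24724 to 32698 CPM in vehicle nonloaded and 30212 to 71540 CPM in L-BAIBA loaded libraries, and B lineage and cycling markers were lower in 7 of 7 and 8 of 8 genes (medians -0.76 and -0.42). Erythroid, adipocyte and chondrocyte markers were lower in 5 of 5, 5 of 5 and 5 of 6. Their part was not tested.

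Against a single bout alone, L-BAIBA in loaded tibiae gave the only member call of any tool. There were 46 members higher and 31 lower, with a median of 0.03 against -0.04 for all genes, but scaling by total counts turned this to 33 higher and 44 lower with a median of -0.04. By edgeR none had an adjusted p under 0.05 (0% of all genes). At an unadjusted p under 0.05, 2 were higher (2.60%, against 8.85% of all genes) and 1 was lower (1.30%, against 10% of all genes), and 2 and 5 with total counts. DESeq2 gave 3 higher at that p, against 12.1% of all genes. Mrpl33 stood at 44.3, 41.5 and 44.8 CPM with vehicle and at 67.1, 85.8 and 49.7 CPM with L-BAIBA. The groups did not overlap, and the middle library was the highest of all 11. Its log2 fold change was 0.63 ± 0.18, adjusted p = 0.17 by edgeR, and 0.67 ± 0.20 (SE) with an adjusted p of 0.031 by DESeq2, the 1 member of 77 (1.30%) among 866 of all 15495 genes given an adjusted p (5.59%) that DESeq2 called in this comparison. Without L-BAIBA loaded 2 the edgeR value was 0.42 ± 0.16 (SE) with an adjusted p of 0.381.

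Mrpl43, found only in mitochondria, had 21.1, 24.4 and 25.2 CPM with vehicle and 25.9, 36.4 and 28.9 CPM with L-BAIBA in loaded tibiae (0.36 ± 0.14). Mrps36 (chr13:100735940-100744659), the dehydrogenase subunit, had 10.7, 12.2 and 15.4 CPM against 10.5, 10.5 and 8.71 CPM (-0.37 ± 0.16). Neither overlapped between the groups. L-BAIBA loaded 2 was the highest of the 11 libraries for Mrpl33, Mrpl43 and Mrpl44, and L-BAIBA nonloaded 1 from the same mice was among the 3 highest for each. Mrpl33 stood at 66.2 and 48.96 CPM, Mrpl43 at 29.7 and 25.9 CPM and Mrpl44 at 22.8 and 17.5 CPM in the 2 L-BAIBA nonloaded libraries. Neutrophil markers were higher in 9 of 9 genes in this comparison (median 0.91) and erythroid markers lower in 5 of 5 (median -0.88), and their part was not tested.

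Loading within L-BAIBA-treated mice after a single bout gave 60 members higher and 17 lower with a median of 0.05 against -0.00 for all genes, turned to 33 higher and 44 lower by scaling with total counts. None had an adjusted p under 0.05 by edgeR (0% of all genes), and 1 was higher at an unadjusted p under 0.05 (1.30%), against 0.419% of all genes. DESeq2 gave 1. The 1 by edgeR was Mrps18a (chr17:46111004-46128908), with 16.1 and 16.8 CPM in nonloaded and 19.5, 21.8 and 19.6 CPM in loaded libraries and no overlap (0.30 ± 0.13, adjusted p = 0.9999). Mrps6 (0.25 ± 0.18) and Mrpl9 (0.18 ± 0.15) came next. With the pool as a fixed block, where L-BAIBA loaded 1 has no partner, no member passed that threshold, against 1.28% of all genes. Nor did any without vehicle nonloaded 1, vehicle nonloaded 3, vehicle loaded 2 or L-BAIBA loaded 2, and 2 passed without L-BAIBA loaded 3 (0.977% of all genes higher). None passed without L-BAIBA nonloaded 1 (0.202% of all genes) or L-BAIBA nonloaded 2 (1.51%), where the 1 nonloaded library left is assumed to vary like the other groups. B lineage and osteoblast markers were higher in all 7 and 6 genes (medians 0.34 and 0.45) and cycling markers lower in 8 of 8 (median -0.14).

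The interaction in the single-bout experiment gave no member at an unadjusted p under 0.05, against 0.490% of all genes positive and 1.52% negative, and none at an adjusted p under 0.05 by edgeR (0% of all genes). DESeq2 gave 1 positive. The median was 0.01 against -0.04 for all genes, with 46 members positive and 31 negative, and 59 were negative with total counts. The smallest p values were those of Mrps18a (0.28 ± 0.17), Mrpl1 (-0.25 ± 0.19) and Mrpl33 (0.35 ± 0.27). Without L-BAIBA loaded 3, 1 member was positive at that p, against 1.23% of all genes.

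**Figure D5:**
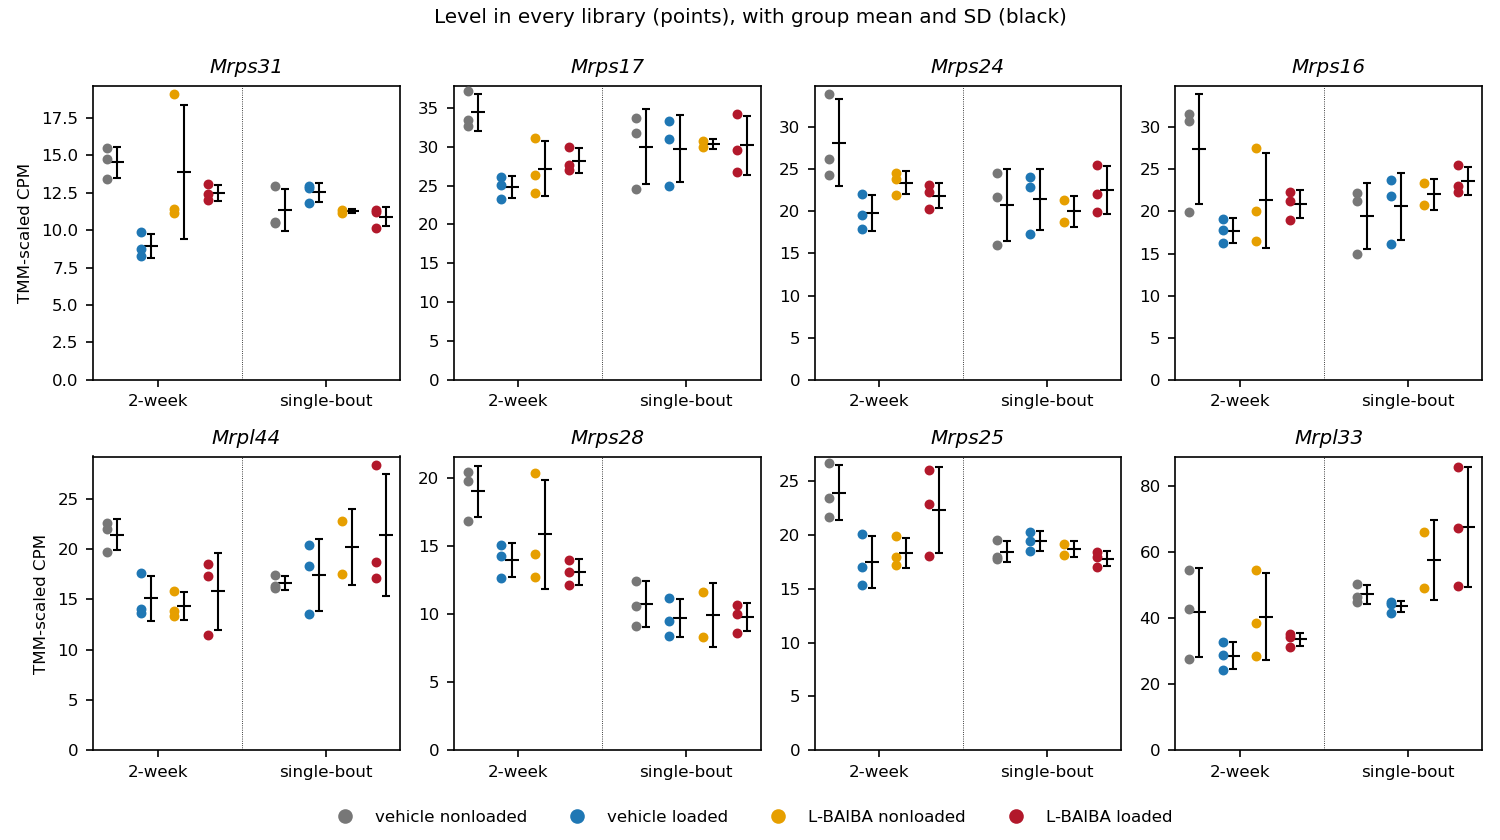
TMM-scaled CPM of Mrps31, Mrps17, Mrps24, Mrps16, Mrpl44, Mrps28, Mrps25 and Mrpl33 in every library (points, y axis from 0), by group and experiment (x axis), with group mean and SD in black. Mrps31 lies between 13.4 and 15.5 CPM without and between 8.25 and 9.86 CPM with loading under vehicle in the 2-week experiment, and Mrpl33 is highest at 85.8 CPM in a single-bout L-BAIBA loaded library.

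The differences between the experiments were tested as differences of differences, each set against its own vehicle nonloaded group, since the 2 tables were made separately. These tests reuse the libraries of the comparisons within each experiment and are not independent of them. For loading alone the members' median was already -0.35 after 2 weeks and 0.03 after a single bout. For loading alone all 77 members were higher after a single bout than after 2 weeks, with differences of 0.00 to 0.83 on the log2 scale and a median of 0.36 against -0.01 for all genes. No member had an adjusted p under 0.05 by edgeR (0% of all 15188 genes), and 11 were higher at an unadjusted p under 0.05 (14.3%), against 1.12% of all genes. DESeq2 gave 13. Mrps31 differed by 0.83 ± 0.24, adjusted p = 0.9998, with log2 fold changes of 0.14 ± 0.13 (SE) after a single bout and -0.70 ± 0.21 (SE) after 2 weeks. Mrpl39 (0.42 ± 0.16), Mrps27 (0.57 ± 0.21) and Mrps16 (0.69 ± 0.28) followed. With the pool as a random block 31 members passed that threshold, against 3.21% of all genes, and without the shallow pool 21, against 2.54%.

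Leaving out 1 library gave 3 to 27 members in this test and medians from 0.27 to 0.49. The count was 3 without 2-week vehicle nonloaded 2 (0.5% of all genes higher), 6 without 2-week vehicle loaded 2 (0.593%) or single-bout vehicle loaded 3 (0.665%), and 27 without 2-week vehicle loaded 3 (3.40%). It was 24 without 2-week vehicle nonloaded 3 (2.15%), 22 without single-bout vehicle loaded 1 (3.73%), 19 without 2-week L-BAIBA nonloaded 1 (1.68%) and 18 without 2-week L-BAIBA nonloaded 3 (1.91%). Erythroid, neutrophil and cycling markers were higher in all 5, 9 and 8 genes (medians 0.84, 0.34 and 0.52, with 1 cycling gene at that p), while endothelial and adipocyte markers were lower in 5 of 5 each (medians -0.35 and -1.04). Their part in the member differences was not tested. The experiments differ in the number of bouts, the length of treatment and the set of libraries, which cannot be told apart.

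For L-BAIBA alone 57 members were higher and 20 lower after the shorter treatment, with a median of 0.18 against -0.02 for all genes. By edgeR none had an adjusted p under 0.05 (0% of all genes), and 3 were higher at an unadjusted p under 0.05 (3.90%), against 3.42% of all genes, a share near the background. DESeq2 also gave 3. The 3 by edgeR were Mrpl44 (0.82 ± 0.30, adjusted p = 0.668), Mrpl2 (0.44 ± 0.19) and Mrpl43 (0.44 ± 0.20). The count was 8 without the shallow pool, 7 without 2-week vehicle nonloaded 3 (3.53% of all genes higher), 6 (4 higher, 2 lower) without 2-week L-BAIBA nonloaded 2 (5.43% of all genes higher and 5.69% lower) and 5 without 2-week L-BAIBA nonloaded 1 (2.81%). It was 1 without single-bout vehicle nonloaded 2 (2.95%). Leaving out either single-bout L-BAIBA nonloaded library leaves 1 in that group, so no count is given for those fits in this test. Neutrophil markers were higher in 9 of 9 genes (median 0.74, 3 at that p) and B lineage, endothelial and adipocyte markers lower in all 7, 5 and 5 (medians -0.76, -0.45 and -0.78). Their part was not tested.

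For the combination 71 members were higher and 6 lower after a single bout, with a median of 0.29 against 0.01 for all genes. None had an adjusted p under 0.05 by edgeR (0% of all genes), and 9 were higher at an unadjusted p under 0.05 (11.7%), against 5.72% of all genes. DESeq2 also gave 9, total counts gave 4 and leaving out the shallow pool gave 15. Mrpl43 (0.54 ± 0.19, adjusted p = 0.421), Mrpl44 (0.80 ± 0.29) and Mrpl33 (0.84 ± 0.33) had the smallest p values. The count was 19 without 2-week vehicle nonloaded 3 (6.82% of all genes higher). It was 3 without 2-week vehicle nonloaded 2 (3.31%), single-bout vehicle nonloaded 2 (3.68%) or single-bout L-BAIBA loaded 2 (2.45%), 4 without 2-week L-BAIBA loaded 2 (4.36%) or 3 (4.37%), and 5 without 2-week vehicle loaded 1 (4.52%) or single-bout vehicle loaded 2 (4.29%) or 3 (4.39%). Neutrophil markers were higher in 9 of 9 genes (median 0.88, 5 at that p), and B lineage, endothelial, adipocyte and erythroid markers were lower in all 7, 5, 5 and 5 (medians -0.52, -0.32, -0.77 and -0.34). The part of these cells was not tested.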

How the data were processed

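The authors sequenced poly(A) RNA as stranded libraries with paired reads of 75 bases, aligned them with STAR 2.5.2b to mm10, and counted unique reads per gene with featureCounts of Subread 1.5.1 (mapping quality of at least 10). The deposited values used here are raw read counts per gene in 23 libraries, and the exon length of each gene as the authors deposited it (another deposited value, in bases). The authors' fold changes and p-values stand in the same tables and were not used, nor were 23 columns of log2 values per sample.

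Genes with CPM above 0.5 in at least 4 libraries were kept, following the study's threshold of 0.5 CPM. Counts were scaled by TMM within each experiment and tested with edgeR 4.0.16 (R 4.3.3) by the quasi-likelihood F test, all groups of an experiment in 1 fit, with Benjamini-Hochberg adjustment over all genes. The 3 differences between experiments came from 1 joint fit. Fold changes are log2 with the standard error (SE), and every ± in the text is an SE. Differences called at an unadjusted p under 0.05 are not corrected for the number of genes. Shares of all genes are those of the main edgeR fit unless another setting is named beside them. A count from another setting given without its own share has no background value beside it. Such a count cannot be read as above or below the share of all genes. The p-values measure the spread between libraries of 2 pooled mice.

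The members and gene lists were chosen with earlier results of these data known. Members named are, in each comparison, the 3 with the smallest p and the 2 with the largest change among those at an unadjusted p under 0.05, in each experiment the 5 highest and 5 lowest per length and the 3 most and 3 least variable, and those with a role of their own. Others named for 2 weeks of loading alone (Mrpl19, Mrpl39, Mrpl14 and the remaining members at that p) were chosen after their values were seen. Alternatives were DESeq2 1.42.0, total counts in place of TMM, no filter, the mouse pool as a block (limma 3.58.1 or edgeR) and leaving out each library. Leaving out the shallow pool was added after seeing the data. Loaded and nonloaded libraries are paired by the mice named in the labels, and deviations of paired libraries from their group means correlated over all genes at 0.156 to 0.563 in the 9 pools. The scripts were tested on simulated data. Figures used Python 3.11.15 and matplotlib 3.10.9. Transcripts of the mitochondrial genome were not analysed here.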

Additional observations from a re-analysis of the deposited data

How the results depend on the processing

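No named change past a threshold was reversed, and 1 call of a member was gained, Mrpl33 for L-BAIBA in loaded tibiae after a single bout by DESeq2 (1 member at an adjusted p under 0.05, or 1.30%, against 5.59% of all genes). A count cannot be set against the background unless the share of all genes for that fit is given in the text above. Counts below are members at an unadjusted p under 0.05. With DESeq2 they were 2 for the 2-week combination, and 1 each for L-BAIBA alone and for the interaction after a single bout. With total counts in place of TMM they were 1 for L-BAIBA alone, 1 for the combination, 1 for L-BAIBA in loaded tibiae and 3 for the interaction over 2 weeks, 7 for L-BAIBA in loaded tibiae and 0 for loading within L-BAIBA after a single bout, and 4 for the combination between experiments. The same scaling turned the sign of the members' median to -0.04, -0.02 and -0.08 for L-BAIBA in loaded tibiae, loading within L-BAIBA and the interaction after a single bout, and to 0.03 for L-BAIBA alone. With the mouse pools as a random block they were 51 for 2 weeks of loading alone, 2 for the combination and 29 for the interaction, and 31 for loading alone between experiments. As a fixed block the pairing gave 17 for the 2-week interaction and 0 for loading within L-BAIBA after a single bout. It changed no adjusted call. Without the shallow pool the 2-week counts were 40 (loading alone), 19 (L-BAIBA alone), 0 (loading within L-BAIBA) and 15 (interaction), and those between experiments 21, 8 and 15.

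With each library left out in turn the 2-week counts ranged from 3 to 36 for loading alone, 1 to 18 for L-BAIBA alone, 0 to 10 for the combination, 0 to 4 for L-BAIBA in loaded tibiae, 0 to 4 for loading within L-BAIBA and 1 to 19 for the interaction. After a single bout they ranged from 0 to 0, 0 to 1, 0 to 4, 2 to 3, 0 to 2 and 0 to 1 in the same order, and between experiments from 3 to 27, 1 to 7 and 3 to 19. No member passed an adjusted p under 0.05 with any library left out. Leaving out a single-bout L-BAIBA nonloaded library leaves 1, assumed to vary like the other groups. The cause of these shifts was not tested. Groups of 3 libraries, 2 in 1 case, and the shallowest library at 6368289 counts limit what could be detected.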
